A study of Arabidopsis thaliana with 4 samples.

Results

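The genes described here are the plastid-encoded genes of Arabidopsis thaliana that build the plastid's own expression machinery, together with the few other plastid genes that code for neither the NDH complex nor a photosynthetic subunit. They were taken by gene symbol, with no measured value in the rule, as probe sets with a single plastid gene whose symbol begins with rpo, rps, rpl, mat, ycf, clp, acc, ccs or cem. This gave 26 genes with 1 probe set each, out of 69 plastid genes and 13356 genes of any genome with a single-gene probe set. They comprised 4 subunits of the plastid RNA polymerase and 8 proteins of the small and 7 of the large ribosomal subunit. Also among them were the maturase gene matK, clpP and accD, and the assembly factor genes ycf3, ycf4 and ccsA. The envelope membrane protein gene cemA was placed in the same class as the assembly factors. The genes rpl2, rpl23, rps7, rps12, ycf1 and ycf2 were listed with several gene entries and were not analysed here.

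The study set a mutation in FNR1, a leaf ferredoxin-NADP+ oxidoreductase, against the variation between natural accessions. It measured fnr1 mutants of the ecotype Wassilewskija (Ws), fnr1 mutants of the ecotype Columbia, wild type Ws and wild type Columbia, with 1 Affymetrix array for each of the 4. All plants were 31 days old and grown on soil in 8 h of light and 16 h of dark at 21 °C, and above-ground tissue was taken 4 h into the light period. The labels name no mutant allele and do not say how many plants an array stands for, and FNR1 itself had no probe set listed, so the mutant status rests on the labels.

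Plastid genes are read by a pair of transcription systems. The plastid-encoded polymerase (PEP) is of the bacterial type, with its core encoded by rpoA, rpoB, rpoC1 and rpoC2, and it transcribes most photosynthesis genes in green leaves. A nuclear-encoded phage-type polymerase (NEP) transcribes the rpoB operon and accD, among others. Many plastid genes lie in clusters whose long transcripts are cut and spliced, so that genes of a cluster can share a promoter and still differ in transcript level. Most plastid messages carry no lasting poly(A) tail. In this study the cDNA was primed with an oligo(dT) primer, per the labels' protocols. How far the signals below follow the abundance of plastid transcripts was not tested.

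The arrays differed in level as deposited, with a median signal of 22.1 for wild type Columbia and 27.5 to 28.9 for the others, so every array was scaled to the same median signal. Signals below are on that scale, a linear brightness that can be compared between arrays for 1 gene but not between genes. The median over the 69 plastid genes was 1394 in fnr1 Ws and 1439 in fnr1 Columbia, against 1435 and 1249 in the wild types. The leaf gene RCA (Rubisco activase) had signals of 7079 to 7366 on the 4 arrays. It was the 1 of 6 leaf markers with a probe set listed. Of 6 root markers 2 were listed. These were EXPA7, a root hair expansin, and PYK10, a root glucosidase, whose signals are given with the ecotype comparison. None of the 5 inflorescence markers had a probe set listed.

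**Figure D1:**
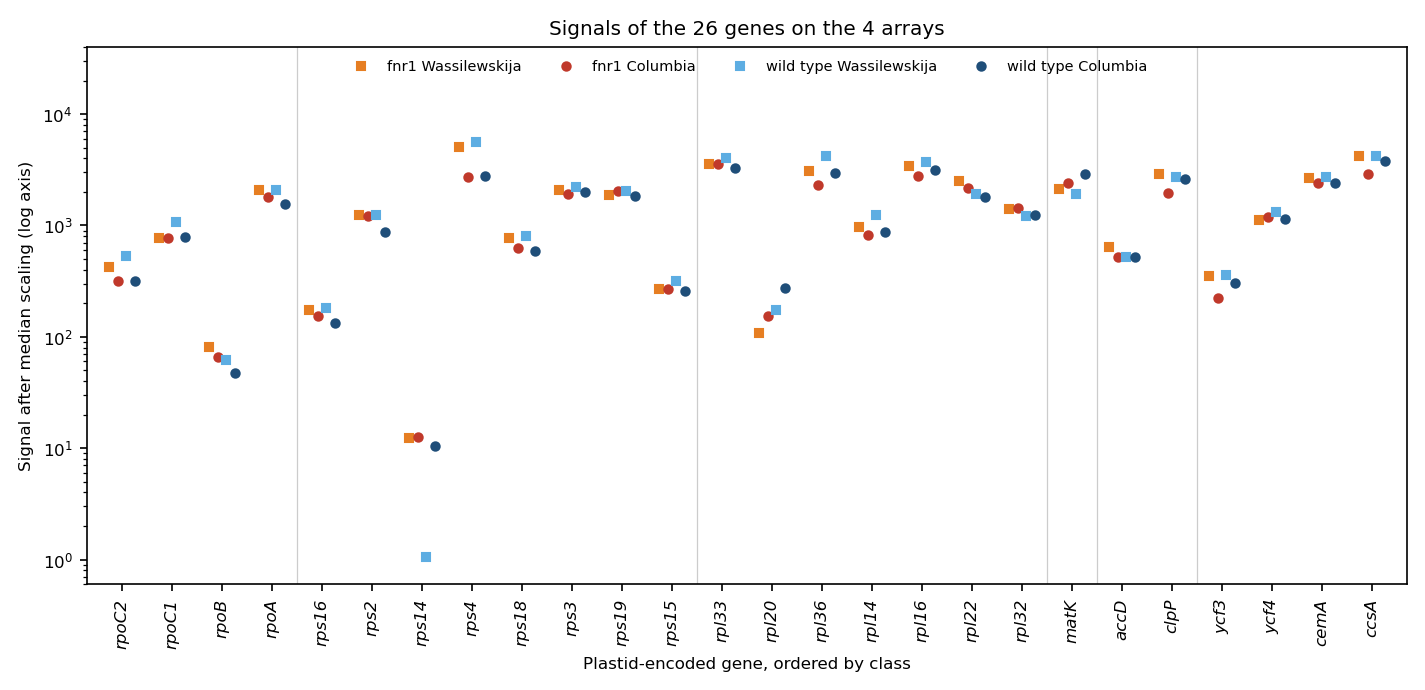
Signal of each of the 26 genes on the 4 arrays after median scaling, on a log axis, with genes ordered by class and grey lines between the classes. The Wassilewskija points of rps4 lie apart from the Columbia points, the 4 points of rpl20 are spread over a 2.56-fold range, and rps14 lies near background.

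Of the 26 genes, 25 passed the filter on low signal, which kept probe sets whose mean log2 signal reached the 40th percentile, and were tested. The exception was rps14, a small-subunit ribosomal protein gene cotranscribed with psaA and psaB. Its signal was 12.5 in fnr1 Ws and 12.6 in fnr1 Columbia, against 1.05 in wild type Ws and 10.4 in wild type Columbia. The value 5.78 was added to every signal before log2 was taken, and 1 of these 4 signals lies below it, so no fold is given for rps14. For most of the other 25 genes the 4 arrays were close, and the highest array exceeded the lowest by 1.12-fold for cemA and 2.56-fold for rpl20, the ends of the range.

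The first comparison asked whether the mutation went with a difference in the signals of these genes, taking both ecotypes together. None of the 25 tested genes passed. The nearest was rpl20, a large-subunit ribosomal protein gene, with lower signals in the mutant in both ecotypes. The other log2 differences were of mixed direction and ran from -0.41 (rpl36) to 0.40 (rpoB). Differences were tested with limma over all 13648 probe sets that passed the filter, with ecotype as a second term and Benjamini-Hochberg adjustment at 0.05. The ecotypes stand as the replicates, which leaves 1 residual degree of freedom for each gene, against 15.7 prior ones. The SE and p-value of a gene thus rest mostly on a variance drawn from all tested probe sets. They cover no more than the spread among the 4 arrays. Limma called 0 of the 25 genes, where it called 0.183% of all tested probe sets (0.161% higher and 0.022% lower in fnr1). An unadjusted p under 0.05 was reached by 3 of the 25, against 6.67% of all tested probe sets. Of the 3, rpl22 was higher, as were 2.97% of all tested probe sets, and rpl20 and rpl36 were lower, as were 3.7%. The median log2 difference over the 25 genes was -0.09, and -0.03 over all tested probe sets.

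The signal of rpl20 was 107.3 in fnr1 Ws and 154.9 in fnr1 Columbia, against 172.4 in wild type Ws and 274.5 in wild type Columbia. Both mutant arrays lay below both wild type arrays. The fitted log2 difference was -0.73 ± 0.16 (SE, 2 arrays against 2, limma adjusted p = 0.124), with -0.66 in Ws and -0.80 in Columbia. It was negative under every alternative run. Fits without 1 array held genotype alone, so the ecotype difference of rpl20 entered their values. These were -0.40 without wild type Columbia, -0.48 without fnr1 Ws, -0.98 without fnr1 Columbia and -1.06 without wild type Ws. The limma adjusted p of rpl20 was 0.0277 when the arrays were scaled to a common median of the plastid genes instead. This setting was chosen after seeing the data. Its prior degrees of freedom were infinite, so the variance of rpl20 itself did not enter. Over all other alternatives the limma adjusted p of rpl20 ran from 0.0985 to 1.

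The other 6 large-subunit genes did not share one direction. rpl36 codes for one of the smallest ribosomal proteins. It had a signal of 3065.9 in fnr1 Ws and 2326.6 in fnr1 Columbia, against 4199.4 in wild type Ws and 2984.9 in wild type Columbia. The mutant was lower within each ecotype, but the groups overlapped, because fnr1 Ws exceeded wild type Columbia. Its log2 difference was -0.41 ± 0.13 (limma adjusted p = 0.507). For rpl22 the signal was 2513.2 and 2183.4 in fnr1 Ws and Columbia, against 1917.5 and 1798.2 in the wild types. Here both mutant arrays lay above both wild type arrays, with a log2 difference of 0.33 ± 0.14 (limma adjusted p = 0.661). rpl32 also had both mutant arrays on top, at 1393.7 in Ws and 1439.4 in Columbia, against 1222.4 and 1249.4 in wild type, a log2 difference of 0.20. The remaining genes of the class had -0.23 (rpl14), -0.14 (rpl16) and -0.02 (rpl33).

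The polymerase genes were split in the mutant. rpoB, which codes for the beta subunit, had a signal of 81.2 in fnr1 Ws and 65.9 in fnr1 Columbia, against 61.8 in wild type Ws and 47.4 in wild type Columbia. Its log2 difference was 0.40 ± 0.19 (limma adjusted p = 0.751), with 0.36 in Ws and 0.43 in Columbia. rpoC1, the next gene of the same operon and the source of the beta' subunit, had 776.5 and 763.1 in fnr1 Ws and Columbia, against 1078.1 and 787.1 in wild type. Both mutant arrays were lower than both wild type arrays, but most of the log2 difference of -0.26 ± 0.15 (limma adjusted p = 0.818) came from Ws, at -0.47 there and -0.04 in Columbia. rpoC2, which codes for the beta'' subunit, had -0.17 and rpoA, which codes for the alpha subunit, had 0.10, each with overlapping groups.

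In the small-subunit class the log2 differences of the 7 tested genes lay between -0.10 (rps4) and 0.24 (rps2). rps2 had 1248.6 in fnr1 Ws and 1214.5 in fnr1 Columbia, against 1238.1 in wild type Ws and 877.1 in wild type Columbia. The difference in rps2 stemmed from 1 array, since only wild type Columbia was low, and the limma adjusted p was 0.823. matK, the maturase that splices group II introns of several plastid transcripts, had -0.06. clpP, a catalytic subunit of the plastid Clp protease, had -0.15, and accD, a subunit of the acetyl-CoA carboxylase of fatty acid synthesis, had 0.14. All 4 genes of the assembly factor class were slightly negative. They ran from -0.24 for ycf3, which helps to assemble photosystem I, to -0.02 for cemA, the envelope membrane protein gene placed with them. ycf4, also a photosystem I assembly factor, had -0.09, and ccsA, needed to attach heme to c-type cytochromes, had -0.19.

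**Figure D2:**
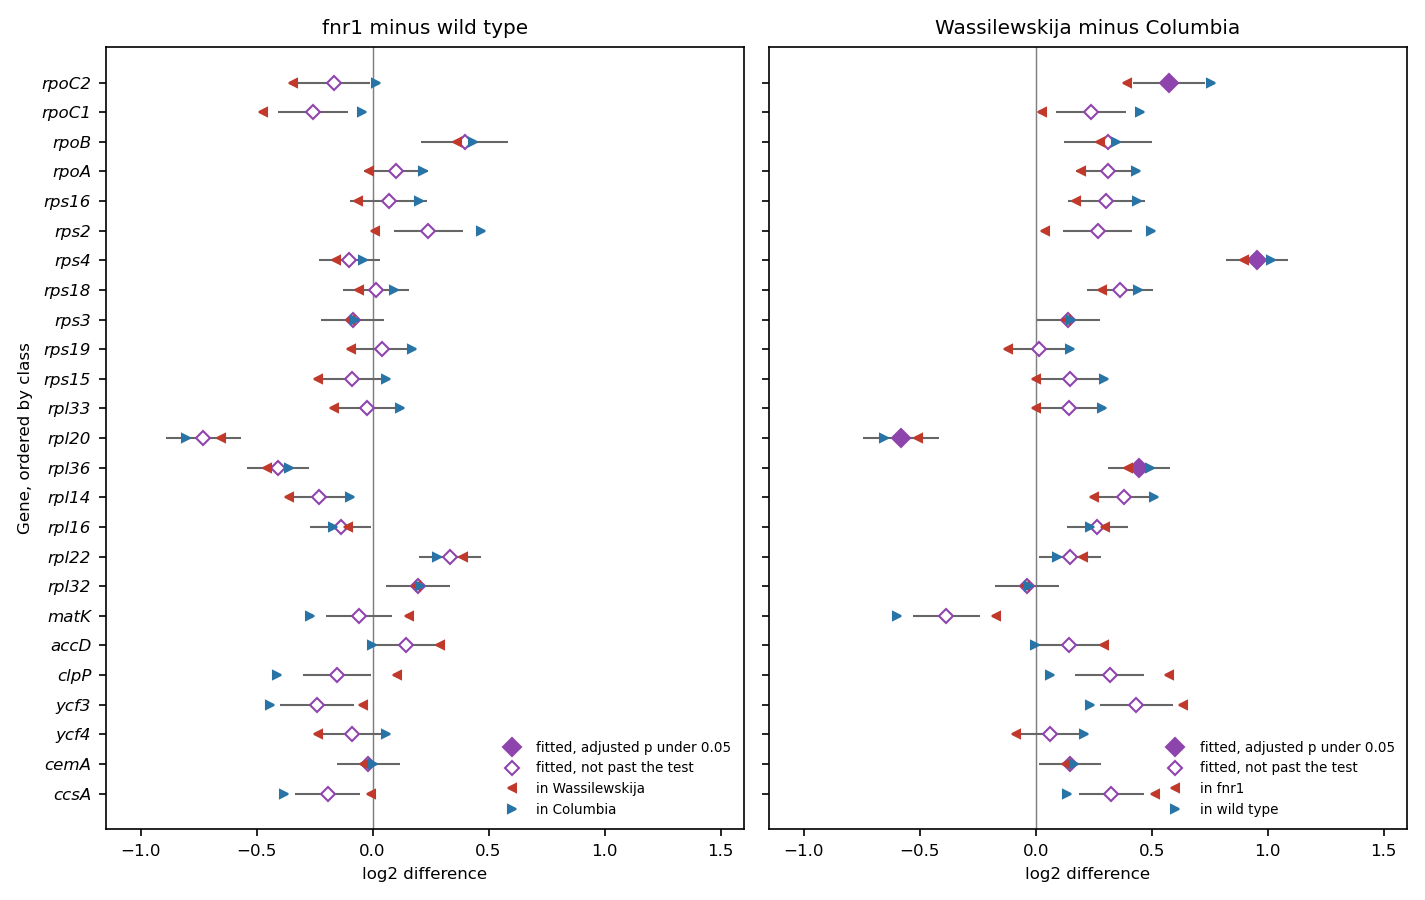
Log2 differences of the 25 tested genes, fnr1 minus wild type on the left and Wassilewskija minus Columbia on the right; diamonds are the fitted values with their SE, filled where the limma adjusted p is under 0.05, and triangles are the differences of single pairs of arrays. No diamond is filled on the left, and on the right rps4, rpoC2, rpl36 and rpl20 are.

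Within 1 ecotype there was 1 array a side and no test. At a threshold of 1.5-fold, rpl20 was the 1 gene lower in fnr1 in Ws and the 1 gene lower in Columbia, and 0 of the 25 were higher in either. Of all tested probe sets, 3.22% were lower and 2.48% higher in Ws, and 3.99% were lower and 4.25% higher in Columbia. Several genes had a difference in Columbia with little in Ws. clpP, ycf3 and ccsA had -0.41, -0.44 and -0.38 in Columbia, where the corresponding values in Ws were 0.10, -0.04 and -0.01. In each of the 3 the lowest of the 4 signals was that of fnr1 Columbia: clpP, for example, had 1960.0 there, against 2922.6 in fnr1 Ws, 2718.9 in wild type Ws and 2606.5 in wild type Columbia. Whether the ecotypes differed in their response to the mutation could not be tested with 1 array for each combination.

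The second comparison set Ws against Columbia, taking both genotypes together. Here 4 of the 25 genes passed the test. The signals of rps4, rpoC2 and rpl36 were higher in Ws and that of rpl20 was lower. Most of the others were slightly higher in Ws without passing, and matK was lower. The 4 calls are 16% of the 25 genes, where limma called 8.32% of all tested probe sets, so the share is read against that background. Of the 25 genes 3 were called higher, against 3.07% of all tested probe sets, and 1 lower, against 5.25%. An unadjusted p under 0.05 was reached by 11 of the 25, against 20.2% of all tested probe sets, with 9 higher (background 9.86%) and 2 lower (background 10.3%).

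rps4 had the largest difference of the 25. It codes for a protein that binds early to the small-subunit rRNA, and in Arabidopsis it lies between ycf3 and ndhJ in plastid gene order. Its signal was 5032.7 in fnr1 Ws and 5611.7 in wild type Ws, against 2699.8 in fnr1 Columbia and 2779.7 in wild type Columbia. Both Ws arrays lay far above both Columbia arrays, and the genotypes of each ecotype were close. The fitted log2 difference was 0.95 ± 0.13 (SE, 2 arrays against 2, limma adjusted p = 0.000115), a 1.94-fold higher signal in Ws. It was 0.90 in fnr1 and 1.01 in wild type. In these bulk samples fewer cells of a type and less RNA per cell cannot be told apart. Whether the probes match the plastid sequence of both ecotypes equally was not tested, for rps4 or any other gene. The call held on the deposited scale (limma adjusted p = 0.000326) and without any 1 of the arrays, and was lost with no filter on low signal (limma adjusted p = 0.0578). On the deposited scale the prior degrees of freedom were infinite, so the variance of rps4 itself did not enter. The neighbours of rps4 had smaller differences, 0.43 for ycf3 and 0.23 for ndhJ, neither of them called.

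rpoC2 had a higher signal in Ws, with a log2 difference of 0.57 ± 0.15 (limma adjusted p = 0.0269). Its signal was 420.1 in fnr1 Ws and 535.1 in wild type Ws, against 318.1 in fnr1 Columbia and 315.0 in wild type Columbia. Both Ws arrays lay above both Columbia arrays, and the gap was wider in wild type, at 0.75, than in fnr1, at 0.39. The limma adjusted p was 0.267 on the deposited scale, 0.0740 without fnr1 Columbia, 0.0857 without wild type Columbia and 0.473 without wild type Ws, so each of these lost the call. It was also lost with no filter, with no variance trend, with genotype left out and with plastid median scaling, at a limma adjusted p of 0.0579 to 0.134. The other polymerase genes were positive in both genotypes and were not called: rpoA had 0.31, rpoB 0.31 and rpoC1 0.24. For rpoA the signal was 2067.7 in fnr1 Ws and 2090.1 in wild type Ws, against 1804.2 and 1549.9 in Columbia. For rpoB it was 81.2 and 61.8 in Ws, against 65.9 and 47.4 in Columbia, where the groups overlap. All 4 polymerase genes thus had positive values, as did 7582 of all 13648 tested probe sets, and 1 of the 4 passed the test.

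rpl36 had a higher signal in Ws, with a log2 difference of 0.44 ± 0.13 (limma adjusted p = 0.0485). Its signal was 3065.9 in fnr1 Ws and 4199.4 in wild type Ws, against 2326.6 in fnr1 Columbia and 2984.9 in wild type Columbia. The Ws arrays were above the Columbia arrays, but fnr1 Ws exceeded wild type Columbia by little. The limma adjusted p was 0.219 on the deposited scale, 0.0756 without fnr1 Ws, 0.478 without fnr1 Columbia and 0.7997 without wild type Ws, so each of these lost the call. The log2 difference was 0.40 in fnr1 and 0.49 in wild type, and the fitted one was 0.63 on the deposited scale. Fits without 1 array left out genotype, so the genotype difference of rpl36 entered their values. These were 0.67 without fnr1 Ws, 0.27 without fnr1 Columbia and 0.22 without wild type Ws. A pseudocount of 32, weaker filters, no variance trend, genotype left out and plastid median scaling also ended the call, at a limma adjusted p of 0.0553 to 0.433.

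rpl20 had a lower signal in Ws, with a log2 difference of -0.58 ± 0.16 (limma adjusted p = 0.0345). It was lower in both genotypes, with -0.51 in fnr1 and -0.65 in wild type. Its signals were 107.3 in fnr1 Ws and 172.4 in wild type Ws, against 154.9 in fnr1 Columbia and 274.5 in wild type Columbia. The groups overlapped, since wild type Ws lay above fnr1 Columbia, and the ecotype and the mutation each went with a lower signal. The limma adjusted p was 0.664 on the deposited scale, 0.758 without fnr1 Ws, 0.752 without wild type Columbia and 0.0647 without wild type Ws, so each of these lost the call. Fits without 1 array left out genotype, so the genotype difference of rpl20 entered their log2 differences. These were -0.25 without fnr1 Ws, -0.98 without fnr1 Columbia, -0.91 without wild type Ws and -0.18 without wild type Columbia. Weaker filters, no variance trend and genotype left out ended the call too, at a limma adjusted p of 0.0515 to 0.256. clpP, which is cotranscribed with rpl20 and rps12, went the other way, at 0.32 (limma adjusted p = 0.236), with 0.58 in fnr1 and 0.06 in wild type.

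The 7 measured genes of the ribosomal protein cluster that ends in rpoA were all positive between the ecotypes. So were 7582 of all 13648 tested probe sets. In order along the unit, the log2 differences of Ws minus Columbia were 0.01 for rps19, 0.15 for rpl22, 0.14 for rps3, 0.27 for rpl16, 0.38 for rpl14, 0.44 for rpl36 and 0.31 for rpoA. The smallest values were thus at the start of the measured stretch and the largest near its end, while neighbours differed by no more than about the SE of a gene. Between fnr1 and wild type the same genes ran from 0.33 for rpl22 to -0.41 for rpl36, with 0.04 for rps19 at the start and 0.10 for rpoA at the end. These values describe 1 cluster on 4 arrays, and the order along it was not tested.

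**Figure D3:**
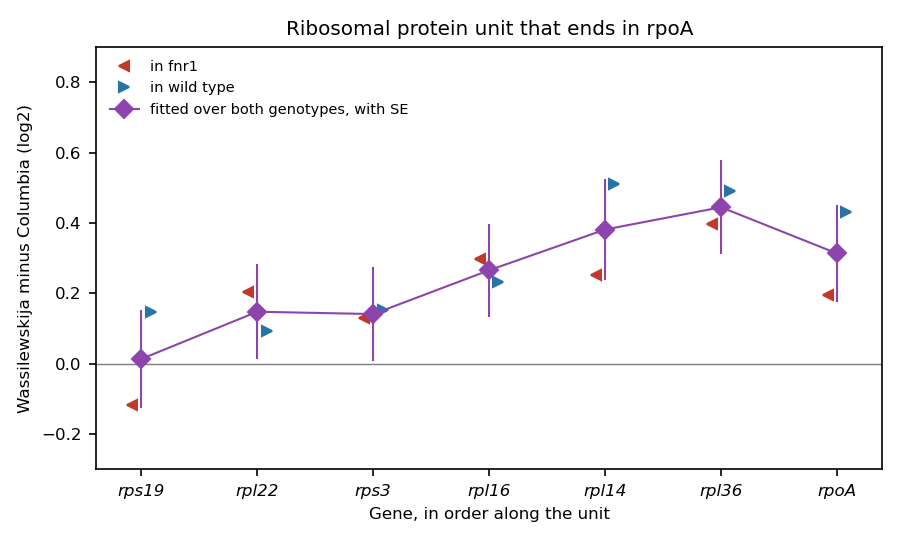
Log2 difference of Wassilewskija minus Columbia for the 7 measured genes of the ribosomal protein cluster that ends in rpoA, in order along the cluster; diamonds are fitted values with their SE, and triangles the differences within fnr1 and within wild type. The fitted values lie between 0.01 at rps19 and 0.44 at rpl36.

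Other clusters differed in how even they were. In the accD cluster accD had 0.14, ycf4 had 0.06 and cemA had 0.15 between the ecotypes, and the photosynthesis genes of the same cluster had 0.01 (psaI) and 0.06 (petA). In the cluster that starts with rps2, rps2 had 0.27 and the ATP synthase genes after it ran from 0.44 to -0.10. rps15 had 0.15, while ndhH and ndhA next to it were lower in Ws by 0.82 and 0.87 (limma adjusted p = 0.00355 and 0.000508). rps18 had 0.36 and its neighbour rpl33 had 0.14, and ccsA had 0.32 where rpl32, before it in gene order, had -0.04.

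matK had the second lowest value among the tested genes, after rpl20. Its signal was 2123.0 in fnr1 Ws and 1905.6 in wild type Ws, against 2391.9 in fnr1 Columbia and 2889.0 in wild type Columbia. Both Ws arrays lay below both Columbia arrays, and the log2 difference of -0.39 ± 0.14 was not called (limma adjusted p = 0.123). ycf3, on the positive side, had 351.4 in fnr1 Ws and 361.6 in wild type Ws, against 224.3 in fnr1 Columbia and 306.7 in wild type Columbia. Its log2 difference of 0.43 ± 0.16 was not called either (limma adjusted p = 0.116). Without wild type Columbia it was 0.65, in a fit that left out genotype, so the genotype difference of ycf3 entered it. accD was almost level, at 643.0 and 524.2 in Ws against 524.1 and 525.4 in Columbia, with fnr1 Ws the 1 array that stood higher.

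ccsA had 4165.9 in fnr1 Ws and 4180.6 in wild type Ws, against 2917.5 in fnr1 Columbia and 3803.6 in wild type Columbia. Both Ws arrays were above both Columbia arrays, with a log2 difference of 0.32 ± 0.14 (limma adjusted p = 0.196). rpl33 had 3565.4 and 3997.0 in Ws, against 3568.5 and 3283.1 in Columbia, so its groups overlapped. The 4 signals also lay close together for rps19, between 1826 and 2056.3, and for rpl32, between 1222.4 and 1439.4, both with ecotypes that overlapped. rps3 lay between 1909 and 2234.6, rps16 between 132.2 and 180.8, rps18 between 589.7 and 801.5, and rps15 between 257.1 and 316.5. In each of these 4 small-subunit genes both Ws arrays were above both Columbia arrays, for rps15 by the narrowest margin, and none was called. rpl14 lay between 814.9 and 1246.6 and rpl16 between 2803.7 and 3708.7, again with Ws above Columbia.

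At a threshold of 1.5-fold within 1 genotype, with no test, rps4 and ycf3 were higher in Ws among fnr1 plants and 0 of the 25 were lower, against 6.66% and 8.18% of all tested probe sets. Among wild type plants rps4 and rpoC2 were higher and matK and rpl20 lower, against 7.76% and 8.13%.

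Over all 25 tested genes, 22 had a positive log2 difference, as did 7582 of all 13648 tested probe sets. The median was 0.27, against 0.04 over all tested probe sets. Both Ws arrays lay above both Columbia arrays for 15 of the 25, against 27.1% of all tested probe sets, and below them for 1, matK, against 21.2%. For the genotype comparison the corresponding counts were 3 above, against 10.7%, and 2 below, against 16.3%. Over all 26 genes, rps14 included, the ecotype median was 0.25. The 33 photosynthesis genes of the plastid had a median of 0.10, with 2 called higher and 1 lower, and the 10 ndh genes had -0.12, with 0 of the 9 tested called higher and 3 lower. The 3 lists were set side by side, and the difference between them was not tested.

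**Figure D4:**
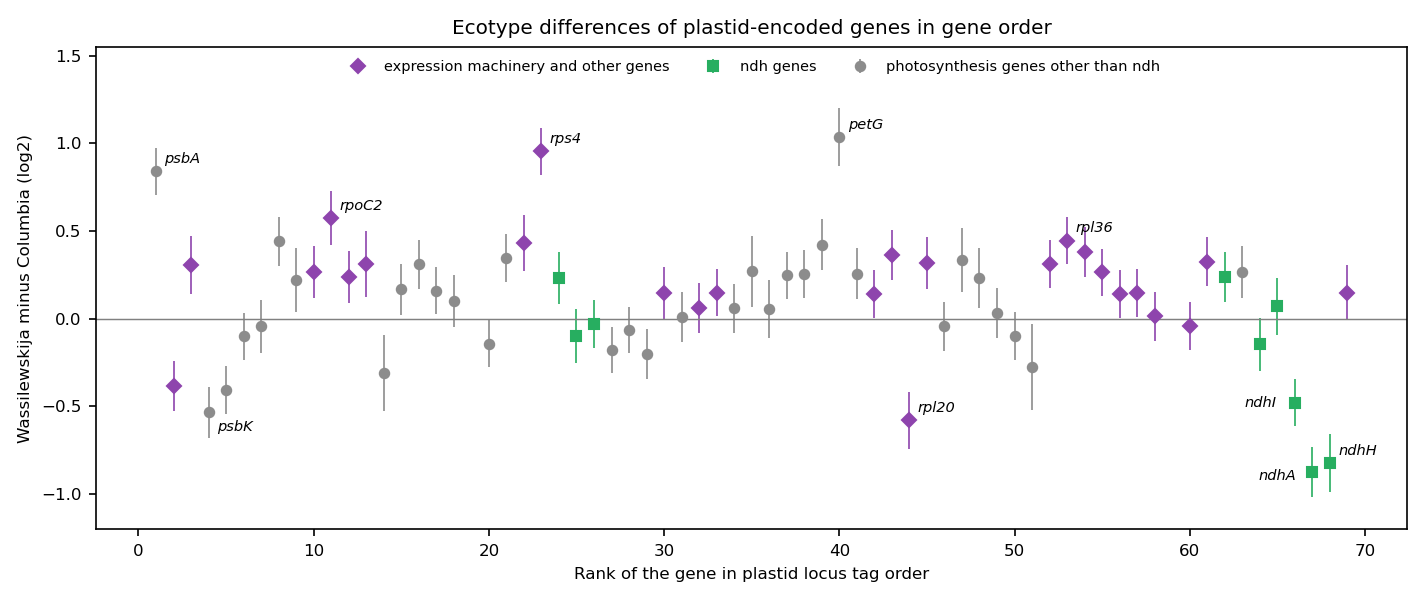
Log2 difference of Wassilewskija minus Columbia, with its SE, for the 67 tested plastid genes, placed by rank in locus tag order and coloured by list; names mark the 10 genes with a limma adjusted p under 0.05. Of these 10, rps4, rpoC2, rpl36 and rpl20 belong to the expression machinery, and 5 lie above and 5 below 0.

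Some measures of RNA and tissue differed between the ecotypes. For the older GAPDH control the 3' probe set exceeded the 5' one by 1.39-fold in fnr1 Ws and 1.32-fold in wild type Ws, against 1.475-fold in fnr1 Columbia and 1.48-fold in wild type Columbia. For the older ubiquitin control the excess was 3.28-fold and 3.25-fold in Ws, against 2.59-fold and 2.49-fold in Columbia. These were 2 of 6 such ratios, and the other 4 overlapped between the ecotypes. Among those 4 the older actin control had the largest excess, at 30.3-fold in fnr1 Columbia. It was 18.8-fold in fnr1 Ws, 20.35-fold in wild type Ws and 15.2-fold in wild type Columbia. Between the genotypes 1 of the 6 did not overlap, the newer ubiquitin control, at 1.205-fold and 1.209-fold in fnr1 Ws and Columbia, against 1.369-fold and 1.515-fold in wild type. The listed root markers went opposite ways. PYK10 had 71.2 in fnr1 Ws and 93.8 in wild type Ws, against 132.5 in fnr1 Columbia and 110.7 in wild type Columbia. EXPA7, which was below the filter, had 7.32 and 8.5 in Ws, against 1.002 and 1.532 in Columbia. Their summed signal, nearly all from PYK10, was 78.5 and 102.3 in Ws, against 133.5 and 112.2 in Columbia, with neither at 0. PYK10 was not called between the ecotypes (limma adjusted p = 0.1004). The part of these measures in the ecotype differences was not tested.

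Nuclear genes that serve the same machinery were taken from lists of the phage-type polymerases, sigma factors, polymerase-associated proteins, plastid ribosomal proteins, Clp, acetyl-CoA carboxylase and cytochrome assembly subunits, partners of ycf1 and ycf2, photosystem I assembly factors and splicing or editing factors. A probe set was listed for 23 of the 102 entries, and 21 passed the filter. Limma called 0 of these 21 in either comparison, where it called 0.183% (genotype) and 8.32% (ecotype) of all tested probe sets. An unadjusted p under 0.05 was reached by RPL19A and PNAD-MDH between fnr1 and wild type, against 6.67% of all tested probe sets, and by RPL19B and CLPT2 between the ecotypes, against 20.2%. None of the 6 sigma factors and none of the 13 polymerase-associated proteins was listed, nor any of the 4 acetyl-CoA carboxylase genes, and the 1 listed phage-type polymerase, RPOTMP, was below the filter. The 2 tested genes of the small plastid ribosomal subunit had a median log2 difference of -0.24 between fnr1 and wild type and 0.04 between the ecotypes, and the 2 cytochrome assembly genes had -0.20 and 0.03. The 1 tested partner gene of ycf1 and ycf2, PNAD-MDH, had -0.34 and -0.08, and the 1 tested photosystem I assembly gene had -0.06 and 0.16. The 7 tested nuclear genes of the large plastid ribosomal subunit had a median log2 difference of -0.14 between fnr1 and wild type and 0.04 between the ecotypes. The smallest p among them belonged to RPL19A in the genotype comparison (-0.36 ± 0.15, limma adjusted p = 0.663) and to RPL19B in the ecotype comparison (0.31 ± 0.14, limma adjusted p = 0.216). RPL19A had a signal of 432.0 in fnr1 Ws and 337.1 in fnr1 Columbia, against 532.9 in wild type Ws and 454.0 in wild type Columbia, so the mutant was lower within each ecotype and the groups overlapped. RPL19B had 971.1 in fnr1 Ws and 1052 in wild type Ws, against 759.3 and 870.2 in Columbia. Of the 5 tested nuclear Clp genes, CLPR3 had the smallest p in the genotype comparison (-0.26, limma adjusted p = 0.814), and CLPT2, an accessory protein of the Clp core, in the ecotype comparison (-0.42, limma adjusted p = 0.118). CLPT2 had 253.4 in fnr1 Ws and 289.2 in wild type Ws, against 371.4 and 355.8 in Columbia, and both Ws arrays lay below both Columbia arrays. CAF1, a factor in the splicing of group II introns, had the smallest p of the 3 tested splicing genes in both, with -0.10 (limma adjusted p = 0.965) and 0.30 (limma adjusted p = 0.443).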

How the data were processed

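Above-ground tissue was measured on 4 Affymetrix arrays. Each deposited value is a linear intensity, the signal of 1 probe set. Per the submitters' processing notes the authors used MAS5, and its version and scaling target are not given in the sources used here. Each array was scaled to the mean of the 4 array medians (26.5) over 22746 non-control probe sets. The pseudocount 5.78 is the 25th percentile of the scaled signals, and log2 differences understate the change of dim probe sets. The 13648 probe sets at or above the 40th percentile of mean log2 signal were fitted with limma 3.58.1 in R 4.3.3, with genotype and ecotype as additive terms (1 residual degree of freedom, 15.7 prior), a variance trend, 2-sided tests and Benjamini-Hochberg adjustment, and this was tested on simulated data. The number of arrays limits the precision.

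Genes were named through the probe annotation and, by gene ID, the TAIR10.1 gene table, which gave the plastid locus tags and the gene order. Named by rule were the called genes, the members with the highest and lowest mean signal in each class, the 3 highest and 3 lowest in each comparison, and the called or smallest-p genes of the nuclear lists. All other members are given by value. Members and lists were chosen with earlier results of these data known. Transcription units are textbook knowledge. Alternatives were scale, pseudocount, filter, variance trend, model terms and each array left out. Figures were drawn with matplotlib 3.10.9.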

Additional observations from a re-analysis of the deposited data

How the results depend on the processing

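Fits without 1 array held the tested factor alone, since 3 arrays cannot carry both terms with a residual. In these fits the difference of a gene in the other factor thus entered its log2 difference. A lone array was assumed to vary like the others. Averaging probe sets of a gene could give no other value, since each gene had 1. In the ecotype comparison, the 3 genes called higher became 1 on the deposited scale, with no variance trend, with genotype left out of the model and with plastid median scaling, 0 with no filter, and 1 to 3 with an array left out; 1 was called without fnr1 Columbia or without wild type Ws. The 1 gene called lower, rpl20, became 0 on the deposited scale, with no filter, with a filter at the 20th percentile, with no variance trend and with genotype left out, and 0 to 1 with an array left out. The median over the genes, 0.27, was 0.45 on the deposited scale, 0.23 with a pseudocount of 32, 0.19 with plastid median scaling and 0.18 to 0.27 with an array left out. In the genotype comparison the median of -0.09 was 0.038 on the deposited scale, 0.0098 with quantile normalization, -0.17 with plastid median scaling and -0.18 to 0.0654 with an array left out, so its sign is not settled; plastid median scaling called 1 gene lower, rpl20, and all other settings called 0. The median over all tested probe sets was 0.08 (genotype) and 0.21 (ecotype) on the deposited scale, against -0.03 and 0.04 after median scaling. The cause of these changes was not tested. Of 416 comparisons of single named genes with an alternative, 27 lost a call, 2 gained one, 0 called values changed sign and 23 uncalled ones did. The ecotype stood as the block of the genotype comparison, and with it left out limma called 0 of all tested probe sets between fnr1 and wild type, against 25 with it; the labels give no replicate numbers for any other pairing.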

Other observations

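Of the other plastid genes, 33 photosynthesis genes and 9 ndh genes were tested, and 6 of these were called between the ecotypes, 2 higher and 4 lower in Ws, where limma called 3.07% of all tested probe sets higher and 5.25% lower. petG, a small subunit of the cytochrome b6f complex, had signals of 203.0 in fnr1 Ws and 200.4 in wild type Ws, against 96.3 in fnr1 Columbia and 94.7 in wild type Columbia, a log2 difference of 1.03 ± 0.17 (limma adjusted p = 0.000472) that is near the 0.95 of rps4. psbA, the D1 protein of photosystem II, had 2574.8 and 2777.9 in Ws against 1481.0 and 1500.3 in Columbia (0.84, limma adjusted p = 0.000486). In Ws, psbK was lower by 0.53 (limma adjusted p = 0.0279), and ndhA, ndhH and ndhI were lower by 0.87, 0.82 and 0.48. The calls of these other plastid genes rest on the main settings and were not followed under the alternatives. At the start of the gene order psbA was higher in Ws, matK (-0.39, not called), psbK and psbI (-0.41, limma adjusted p = 0.0803) were negative, and rps16, which lies between matK and psbK, had 0.30 (limma adjusted p = 0.333). Some neighbouring genes of this stretch thus had fitted ecotype differences of opposite sign on the same 4 arrays, though only psbA and psbK were called. Whether the probes match both ecotypes equally was not tested.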
